A study of Mus musculus with 2 samples.

Results

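The genes described here are 10 that mouse hepatocytes use to make, conjugate, carry and sense bile acids: Cyp7a1, Cyp7b1, Cyp8b1, Cyp27a1, Baat, Slc27a5, Slc10a1, Abcb11, Nr1h4 and Nr0b2. They were taken by name from a count table of 31053 genes, and all 10 were present in it. The study asked how an activated form of YAP, a transcriptional co-activator restrained by the Hippo pathway, changes gene expression in the liver. Cells released by liver perfusion were profiled with a droplet method that counts transcripts at their 3′ ends, each molecule being a unique molecular identifier (UMI) assigned to the barcode of a droplet. Levels were read in the barcodes that resemble hepatocytes, and each difference was set against the median of all genes.

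The series holds 2 libraries on a C57BL/6 strain background, each named here by its label. The control carried the genotype LaptTA;WT and the other library, called tetYAP 4W here, the genotype LaptTA; tetYAP. Both share the tTA transactivator, which the liver-directed LAP promoter drives. The inducible transgene codes for YAP S127A, which lacks an inhibitory phosphorylation site, was kept silent by doxycycline in the food and was released by a regular diet from 4 weeks of age, for 4 weeks in the tetYAP 4W animal. The labels give neither the sex of the animals nor their age at perfusion. Each group is 1 library, so no difference between genotypes could be tested, and all intervals are 95% intervals for counting error only.

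Bile acids are made from cholesterol in the liver. In the classic route Cyp7a1 sets the pace and Cyp8b1 adds the hydroxyl group that makes cholic acid, while in the alternative route Cyp27a1 acts on the side chain and Cyp7b1 hydroxylates the oxysterols that result. Slc27a5 and Baat then join the acids to coenzyme A and to taurine or glycine, Abcb11 exports the conjugates into bile and Slc10a1 takes them up again from the blood. Bile acids bind the nuclear receptor encoded by Nr1h4 (FXR), which induces Nr0b2 (SHP), a repressor that holds back their synthesis.

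The promoters of 3 of these genes are printed. As a share of all UMIs, a synthesis enzyme (Cyp8b1) and a repressor (Nr0b2) had lower levels in tetYAP 4W. An exporter (Abcb11) had a like level in both libraries on that scale, but not on every scale used below. RefSeq entries on GRCm38.p6 (the assembly behind mm10) were matched for 6 of the 10 genes, in 7 windows. Entries for Cyp7a1, Cyp7b1, Baat and Slc27a5 were not at hand. Each run gives the 250 bases before the annotated start, 5′ to 3′ on the strand of the gene. Capitals mark 4 motifs searched on both strands: CAAAGTCCA, of the kind bound by HNF4a; CAAGGNCA, of the kind bound by LRH-1, the product of Nr5a2; an inverted repeat of the FXR type, made of AGNNCA and TGANCT with 1 base between them; and the TATA box TATAAA.
Cyp8b1, chr9:121916306-121916555, minus strand: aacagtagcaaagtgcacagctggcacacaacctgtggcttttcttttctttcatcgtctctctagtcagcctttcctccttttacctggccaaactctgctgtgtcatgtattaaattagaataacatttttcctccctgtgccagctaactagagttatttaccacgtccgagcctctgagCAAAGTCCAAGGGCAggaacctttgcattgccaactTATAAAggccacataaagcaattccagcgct
Nr0b2, chr4:133553126-133553375, plus strand: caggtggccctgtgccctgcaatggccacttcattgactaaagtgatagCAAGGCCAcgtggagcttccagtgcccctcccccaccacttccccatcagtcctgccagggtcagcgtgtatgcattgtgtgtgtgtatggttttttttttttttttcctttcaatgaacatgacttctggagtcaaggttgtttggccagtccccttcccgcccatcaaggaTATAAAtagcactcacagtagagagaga
Abcb11, chr2:69342617-69342866, minus strand: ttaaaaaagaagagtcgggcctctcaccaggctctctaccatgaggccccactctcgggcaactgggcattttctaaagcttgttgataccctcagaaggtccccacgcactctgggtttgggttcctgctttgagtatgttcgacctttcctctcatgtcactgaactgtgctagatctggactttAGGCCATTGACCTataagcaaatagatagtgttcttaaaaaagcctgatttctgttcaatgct

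In Cyp8b1 the HNF4a-type match spans positions -67 to -59 and the LRH-1-type match -60 to -53, so that they overlap, ahead of a TATA box at -31. In Nr0b2 the LRH-1-type match lies at -201 to -194 and a TATA box at -28. In Abcb11 the inverted repeat lies at -63 to -51. The windows of Cyp27a1, Nr1h4 and Slc10a1, which are not printed, held no HNF4a-, LRH-1- or FXR-type match. A Slc10a1 window held a TATA box match on the opposite strand, at -128 to -123. Among 32851 promoter windows of this length, 0.384% held the HNF4a-type motif, 5.53% the LRH-1-type motif, 0.204% the inverted repeat and 12.4% the TATA box. No binding was measured in these libraries, and a match is a description of letters only.

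The control library held 2989 barcodes and the tetYAP 4W library 1524, with 0 barcodes in common, median depths of 3117 and 4150 UMIs and totals of 9509885 and 6777210 UMIs. After clustering without the genes described here, 2592 control barcodes (86.7%) and 663 tetYAP 4W barcodes (43.5%) were hepatocyte-like. These held 8099597 and 2888936 UMIs, and every one of their 7 clusters lay in 1 library, so cluster and genotype cannot be told apart. All 12 hepatocyte markers were counted in them. The same markers were also counted in erythroid, B cell- and T or NK cell-like barcodes, where no hepatocyte RNA belongs. In hepatocyte-like barcodes the median share of UMIs from mitochondrial genes was 28.1% in the control and 58.0% in tetYAP 4W. Doublets were not removed.

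Within hepatocyte-like barcodes the difference was largest for Cyp7b1. Its level, as UMIs divided by the total of these barcodes and scaled to 1000000 (CPM), was 453 (438 to 468, 3668 UMIs) in the control and 19.4 (14.6 to 25.2, 56 UMIs) in tetYAP 4W, or 4.28% of the control level. The classic-route enzyme Cyp8b1 and the repressor Nr0b2 were also lower, at 30.9% and 36.9% of the control level, and the conjugating enzyme Baat lay at 47.1%. Cyp7a1, in contrast, stood at 131% of the control level, and the exporter Abcb11 stood at 98.6%. The 10 genes therefore did not move as a block.

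**Figure D1:**
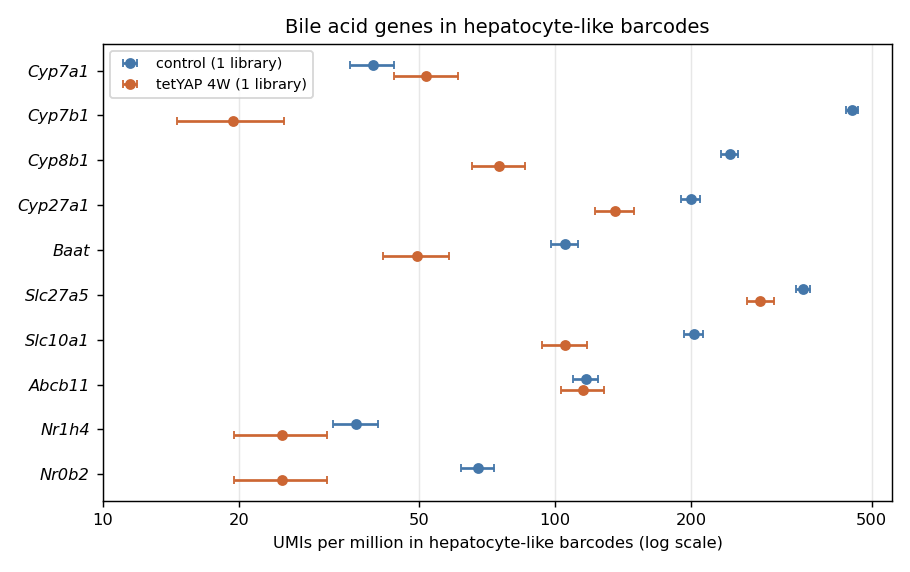
Levels of the 10 genes in hepatocyte-like barcodes, in CPM on a log axis, for the control (blue) and the tetYAP 4W library (orange), 1 library each; bars are exact Poisson 95% intervals. Cyp7b1 stands at 453 against 19.4 CPM, while the points for Abcb11, at 117 and 115 CPM, overlap.

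Counted past a 2-fold limit, Cyp7b1, Cyp8b1, Baat and Nr0b2 were lower in tetYAP 4W, 4 of the 10 genes, and 0 were higher. Among the 10623 genes with at least 10 UMIs in the hepatocyte-like barcodes of both libraries together, 18.2% were lower past this limit and 15.1% higher. The interval lay below 0 for 8 of the 10 genes, which were also below the median of all genes, where 31.2% of all genes met both conditions. It lay above 0 for 1, Cyp7a1. The median log2 ratio of the 10 genes was -0.75 (median bounds -1.03 to -0.58), and that of all 10623 genes was -0.23. Relative to the latter the median of the 10 was -0.52, and 3 genes, Cyp7b1, Cyp8b1 and Nr0b2, stayed past 2-fold lower, where 10.9% of all genes did and 19.3% were higher.

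All 10 genes had at least 100 UMIs, and low counts spread ratios widely. Among the 5120 genes with at least 100 UMIs, 27.0% were 2-fold lower and 5.47% higher, and their median log2 ratio was -0.59. Relative to that median, 5.25% of them were 2-fold lower and 13.2% higher, and of the 10 genes Cyp7b1 and Cyp8b1 lay past the limit. On this footing Cyp27a1 (0.03), Slc27a5 (0.28) and Nr1h4 (0.05) were no longer below the median, 5 of the 10 genes were below it with an interval below 0, where 49.0% of these genes were, and the median of the 10 genes was -0.16.

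**Figure D2:**
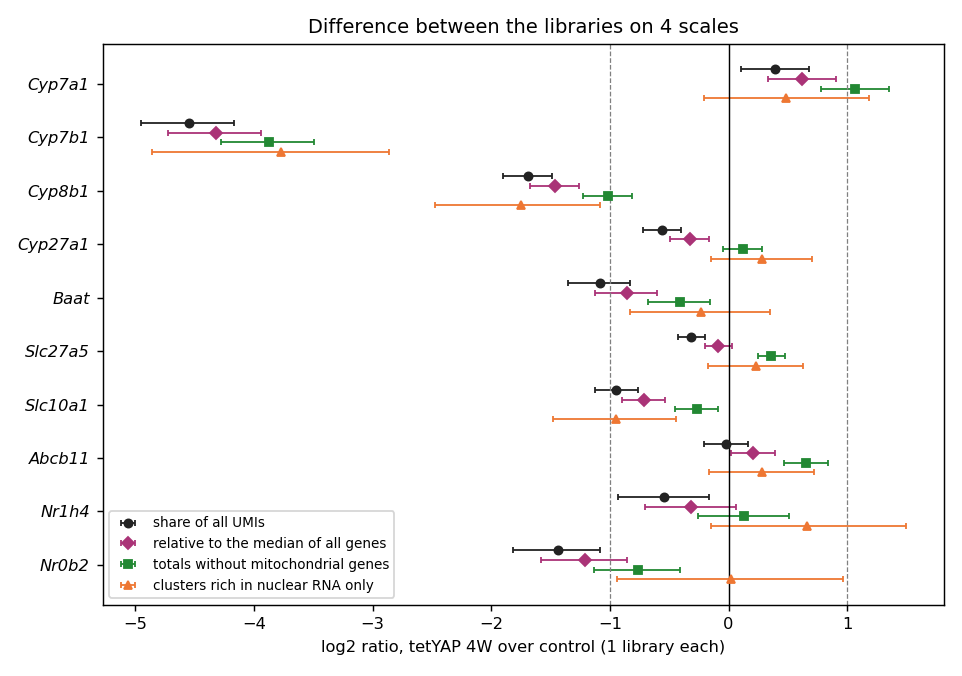
Log2 ratio of tetYAP 4W over control for each gene in hepatocyte-like barcodes on 4 scales: share of all UMIs, relative to the median of all genes, share of UMIs without mitochondrial genes, and within the clusters rich in nuclear RNA. Bars are exact conditional 95% intervals and dashed lines mark 2-fold. The points of Cyp7b1 and Cyp8b1 lie beyond the lower line on all 4 scales, and Nr0b2 moves from -1.44 to 0.02. Without mitochondrial genes the interval of Cyp8b1 crosses that line.

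Of the 2 enzymes of the classic route, Cyp7a1 (chromosome 4, 6265612 to 6275632), the pace-setting 7-hydroxylase, had 39.5 CPM (35.3 to 44.1, 320 UMIs) in the control and 51.9 CPM (43.9 to 60.9, 150 UMIs) in tetYAP 4W. Its log2 ratio was 0.39 (0.10 to 0.68), and 0.62 relative to the median of all genes. Over all barcodes, without regard to cell class, the log2 ratio of Cyp7a1 was 0.03 (-0.21 to 0.26). Set against the median of all genes it was then -0.57 (-0.80 to -0.34), so on that reference the direction turned with the choice of barcodes. Hepatocyte-like clusters rich in nuclear RNA, described further on, and the other hepatocyte-like clusters were also read apart. The log2 ratio itself was then 0.49 (-0.20 to 1.19) and 0.21 (-0.12 to 0.53), both intervals including 0. Against the median of all genes it was 0.31 (-0.38 to 1.01) and 0.74 (0.41 to 1.06).

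Cyp8b1 (chromosome 9, 121914356 to 121916305), the 12-hydroxylase whose promoter carries the overlapping matches shown above, went the other way. It had 243 CPM (232 to 254, 1967 UMIs) in the control and 75.1 CPM (65.5 to 85.8, 217 UMIs) in tetYAP 4W. The log2 ratio was -1.69 (-1.90 to -1.49), and -1.46 relative to all genes. The intervals of the 2 enzymes of this route lay on opposite sides of 0.

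In the alternative route, Cyp27a1 (chromosome 1, 74713148 to 74737897), the mitochondrial 27-hydroxylase, had 199 CPM (190 to 209) in the control and 135 CPM (122 to 149) in tetYAP 4W. Its log2 ratio was -0.56 (-0.72 to -0.40), and -0.33 relative to all genes. Cyp7b1 (chromosome 3, 18071944 to 18243890), the oxysterol 7-hydroxylase of the same route, had a log2 ratio of -4.55 (-4.95 to -4.17). This put Cyp7b1 at percentile 0.207 of the 10623 genes, where Cyp27a1 stood at percentile 35.7.

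Transcripts that mark sex differed between the libraries. In hepatocyte-like barcodes 3 UMIs of Xist, which coats the silenced X chromosome, were counted in the control and 1931 in tetYAP 4W, and 4 genes of the Y chromosome (Ddx3y, Eif2s3y, Kdm5d, Uty) gave 575 and 0 UMIs in sum. Cyp7b1 is known as a gene of male-biased expression in mouse liver, and Slco1a1 and the Sult2a genes described further on also have sex-dependent levels there. With 1 library per genotype, the part of these sex-linked signals in the difference of Cyp7b1 or of any other gene cannot be told apart from that of the transgene.

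The conjugating enzymes differed from each other in size of change. Baat (chromosome 4, 49489416 to 49507915), which attaches the amino acid, had 105 CPM (98.1 to 112) in the control and 49.5 CPM (41.7 to 58.3) in tetYAP 4W, a log2 ratio of -1.09 (-1.35 to -0.83). Slc27a5 (chromosome 7, 12988346 to 12998192), the bile acid coenzyme A ligase of the preceding step, had 353 CPM (341 to 367) and 284 CPM (265 to 304), a log2 ratio of -0.31 (-0.43 to -0.20). Set against the median of all genes, Baat was at -0.86 and Slc27a5 at -0.09, the latter with bounds of -0.20 and 0.03. The place of Baat past the 2-fold limit was not stable: its log2 ratio was -0.94 with TMM and -0.99 with DESeq2 size factors, 2 other scalings of the totals, and it lay past the limit in 10 of 16 ways of choosing barcodes and totals.

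The transporters of the opposite faces of the hepatocyte also differed. Slc10a1 (chromosome 12, 80953185 to 80968705), the sodium-dependent uptake carrier of the sinusoidal face, had 202 CPM (193 to 213) in the control and 105 CPM (93.7 to 118) in tetYAP 4W. Its log2 ratio of -0.94 (-1.13 to -0.77) fell just inside the 2-fold limit, and relative to all genes it was -0.72. Abcb11 (chromosome 2, 69238282 to 69342616), the export pump of the canalicular face, had 117 CPM (110 to 125) and 115 CPM (103 to 128). The log2 ratio of Abcb11 was -0.02 (-0.21 to 0.16), so a difference in its level was not detectable at this depth, and relative to all genes it was 0.21 (0.02 to 0.39).

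Of the sensor and its repressor, Nr1h4 (chromosome 10, 89454234 to 89533645) had 36.3 CPM (32.3 to 40.7) in the control and 24.9 CPM (19.5 to 31.4) in tetYAP 4W. Its log2 ratio was -0.54 (-0.93 to -0.17), and the interval relative to all genes, -0.71 to 0.06, included 0. Nr0b2 (chromosome 4, 133553376 to 133556686) had 67.5 CPM (62.0 to 73.4) in the control and 24.9 CPM (19.5 to 31.4) in tetYAP 4W. The log2 ratio of Nr0b2 was -1.44 (-1.81 to -1.08), at percentile 6.44 of all genes.

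Because hepatocyte RNA was counted in all kinds of barcodes, the level of each gene was also read in every cell class with at least 20 barcodes, 4 classes in the control and 8 in tetYAP 4W. Cyp7b1 ranged from 325 CPM in macrophage-like to 453 CPM in hepatocyte-like control barcodes, and from 3.35 to 19.4 CPM over the tetYAP 4W classes. The lowest control class thus lay above the highest tetYAP 4W class. Cyp8b1 was apart in the same way, at 136 to 243 CPM against 23.4 to 90.8 CPM.

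Baat, at 98.1 to 128 CPM against 22.6 to 50.6 CPM, and Nr0b2, at 54.2 to 98.9 CPM against 0 to 43.4 CPM, completed the 4 genes whose ranges did not overlap, all of them lower in tetYAP 4W. Of 7828 genes with at least 100 UMIs over all barcodes, 6.07% were lower without overlap and 1.15% higher. The ranges of the other 6 genes overlapped, among them Slc10a1, at 88.1 to 202 CPM against 60.2 to 136 CPM. Classes of a library share its free RNA and are no replicates of it.

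How far the counts belong to hepatocytes was read from UMIs per barcode in erythroid, B cell- and T or NK cell-like barcodes, 20 in the control and 216 in tetYAP 4W. In tetYAP 4W the level per hepatocyte-like barcode was above that of these blood cells, with an interval of the ratio above 0, for 3 of the 10 genes. Abcb11 had 0.502 UMIs per hepatocyte-like barcode (0.450 to 0.559) and 0.301 per blood cell-like barcode (0.232 to 0.384). Cyp27a1 had 0.590 and 0.366, and Slc27a5 had 1.24 and 0.852.

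For the other 7 genes the 2 kinds of barcode could not be separated in tetYAP 4W. Cyp8b1 had 0.327 UMIs per hepatocyte-like barcode (0.285 to 0.374) and 0.324 per blood cell-like barcode (0.253 to 0.409), and Cyp7a1 had 0.226 (0.191 to 0.265) and 0.181 (0.128 to 0.247). In the control none of the 10 was above the blood cell-like level, with 20 such barcodes to compare. Slc27a5 was below it per barcode, at a log2 ratio of -0.71 (-1.18 to -0.19). As a share of all UMIs its log2 ratio was -0.29 (-0.76 to 0.23), an interval that included 0. Of the 12 hepatocyte marker genes, read per barcode, 0 were above and 2 below the blood cell-like level in the control. In tetYAP 4W 12 were above it, so the control count is not particular to the 10 genes. Scaled to the total UMIs, control markers such as Alb, at 0.31 (0.24 to 0.37), and Apoa1, at 0.49 (0.37 to 0.62), were higher in hepatocyte-like barcodes. On that scale the control intervals of Apoh, Fga, Ahsg and Cps1 included 0, and those of the other markers lay above 0. As a share of all UMIs, control Cyp7b1 and Abcb11 were higher in hepatocyte-like barcodes, with log2 ratios of 0.66 (0.08 to 1.30) and 1.70 (0.15 to 3.98). Per barcode, control Cyp7b1 had 1.42 UMIs per hepatocyte-like barcode (1.37 to 1.46), within the interval of blood cell-like barcodes, 0.769 to 1.79, and also within that of the 397 barcodes of all other classes together, 1.30 to 1.54.

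The share of barcodes with a UMI was read in the same 2 kinds. A Cyp7b1 UMI was found in 74.0% of hepatocyte-like control barcodes (72.2 to 75.6) and in 75.0% of blood cell-like ones (50.9 to 91.3), at median depths of 3094 and 4048.5 UMIs. In tetYAP 4W the shares were 7.99% (6.05 to 10.3) and 4.63% (2.24 to 8.35), with medians of 4060 and 4285 UMIs per barcode. After thinning each barcode to 1000 UMIs, with 23 shallower hepatocyte-like control barcodes left out, Cyp7b1 was found in 35.4% of hepatocyte-like control and 1.96% of tetYAP 4W barcodes.

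At that thinned depth Abcb11, in tetYAP 4W, was the gene of the 10 whose interval lay above that of blood cell-like barcodes, with 11.0% of barcodes (8.73 to 13.6) against 4.63% (2.24 to 8.35). Thinned to 2000 UMIs these intervals overlapped, at 18.6% (15.7 to 21.7) and 12.5% (8.40 to 17.7). At 1000 UMIs its share in hepatocyte-like control barcodes was 11.1% (9.90 to 12.4). A share that is not above the blood cell-like level cannot be assigned to hepatocytes from these counts, which holds for control Cyp7b1 too.

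The hepatocyte-like barcodes were not uniform. Control cluster 5, with 124 barcodes, and tetYAP 4W cluster 16, with 78, were rich in the nuclear RNA Malat1, at 4385 and 14064 CPM, where the other hepatocyte-like barcodes had 577 and 531 CPM. Within tetYAP 4W Nr1h4 stood at 98.8 CPM (67.2 to 140) in the rich cluster and at 15.9 CPM (11.4 to 21.6) in the others, a log2 ratio of 2.63 (1.91 to 3.34), where the median over 8349 genes was 1.23. Baat, at 1.82 (1.27 to 2.35), was likewise above that median. Cyp7a1 (1.58), Cyp27a1 (1.40), Abcb11 (1.56) and Nr0b2 (1.56) were also higher in the rich cluster, with intervals above 0 that included the median. Slc10a1, at 0.55 (0.06 to 1.01), had an interval above 0 but below the median. With totals without mitochondrial genes Slc10a1 was at 0.03 (-0.46 to 0.48), while the intervals of the other bile acid genes named here stayed above 0.

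In the control the rich cluster had higher Cyp7a1, by 1.30 on the log2 scale (0.75 to 1.81), and higher Abcb11, by 1.06 (0.72 to 1.37), where the median over 9650 genes, inside both intervals, was 0.88. Cyp27a1 (0.34), Baat (0.66), Slc10a1 (0.51) and Nr1h4 (0.83) had intervals above 0 too, and Slc27a5 was lower, at -0.33 (-0.62 to -0.06). With totals without mitochondrial genes Slc27a5 was at -0.21 (-0.50 to 0.07), while the intervals of the genes named as higher stayed above 0. In CPM the intervals of Cyp27a1 (0.03 to 0.64), Slc10a1 (0.22 to 0.79) and Slc27a5 lay below the median of 0.88. Cyp8b1 showed no detectable difference in CPM between the 2 kinds of barcode in either library. Its log2 ratios were 0.02 (-0.29 to 0.32) in the control and -0.04 (-0.73 to 0.59) in tetYAP 4W. Both intervals lay below the median of all genes in their library, 0.88 and 1.23. Cyp7b1, at -0.06 (-0.29 to 0.17) in the control, likewise did not differ in CPM beyond counting error there, and its interval also lay below the median.

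**Figure D3:**
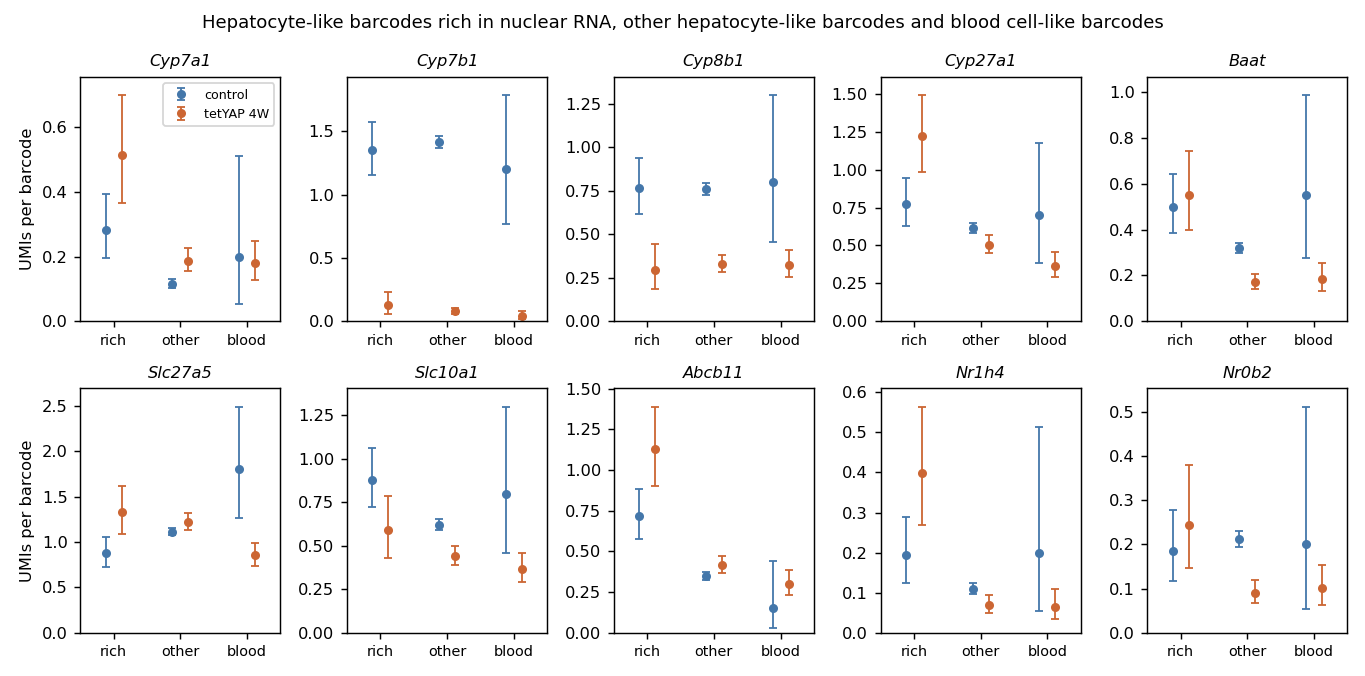
UMIs per barcode of each gene in hepatocyte-like barcodes rich in nuclear RNA (rich), in the other hepatocyte-like barcodes (other) and in erythroid, B cell- and T or NK cell-like barcodes (blood), for the control (blue) and the tetYAP 4W library (orange); bars are exact Poisson 95% intervals. Cyp7b1 and Cyp8b1 are lower in tetYAP 4W in all 3 kinds, and in tetYAP 4W Nr1h4 stands at 0.397 UMIs per barcode in the rich cluster against 0.0648 in the blood classes.

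Compared between the libraries within the rich clusters alone, Cyp7b1 had 436 CPM (373 to 508) in the control and 31.9 CPM (15.3 to 58.6) in tetYAP 4W, a log2 ratio of -3.77. Cyp8b1 kept a log2 ratio of -1.75 and Slc10a1 of -0.95. Nr0b2, at 59.7 CPM (37.9 to 89.6) and 60.6 CPM (36.5 to 94.6), was no longer lower, with a log2 ratio of 0.02 (-0.94 to 0.96). Baat stood at -0.23 (-0.83 to 0.35), and Cyp27a1 (0.28), Slc27a5 (0.23) and Nr1h4 (0.66) changed sign, all with intervals that included 0. The median of all genes was 0.18 in these clusters.

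Mitochondrial transcripts also moved with the groups and take room in every total. With the 50 most abundant genes and mitochondrial genes left out of the totals, the log2 ratio of Cyp8b1 was -1.09 (-1.30 to -0.89). With mitochondrial genes alone left out, that of Cyp8b1 was -1.02 (-1.23 to -0.81), and both intervals crossed the 2-fold limit. On the latter totals the log2 ratio of Cyp7a1 was 1.07 and that of Cyp7b1 -3.87, and the median of all genes was 0.45. Abcb11 then stood at 0.66 and Slc27a5 at 0.36, while Slc10a1, at -0.27, Baat, at -0.41, and Nr0b2, at -0.76, were inside the 2-fold limit and below 0. Values relative to the median of all genes do not depend on the totals. Over 16 ways of choosing barcodes and totals, Cyp7b1 and Cyp8b1 were past 2-fold lower in 16 and Slc10a1 was below 0 in 16, whereas Abcb11 was below 0 in 8. Nr0b2 was past 2-fold lower in 12 of the 16, and Cyp27a1, Slc27a5 and Nr1h4 were each above 0 in 4. The part of mitochondrial and nuclear RNA in these differences was not tested.

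Position along the liver lobule is a known axis of hepatocyte gene expression. Hepatocyte-like barcodes of each library were cut into 3 equal parts by the ratio of 9 pericentral to 10 periportal genes, with 466 control and 147 tetYAP 4W barcodes within 0.1 of a cut. In the control, the log2 ratio of pericentral over periportal barcodes lay between -0.18 and 0.11 for the 10 genes, and all 10 intervals included 0.

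In tetYAP 4W, Abcb11 was lower at the pericentral end, with 142 CPM (120 to 168) in periportal and 104 CPM (84.6 to 127) in pericentral barcodes and a log2 ratio of -0.45 (-0.84 to -0.07). Slc10a1 went the other way, with 97.8 CPM (79.0 to 120) and 129 CPM (108 to 154) and a log2 ratio of 0.40, whose lower bound was 0.0050. With 2 parts in place of 3 both intervals included 0, at -0.22 (-0.54 to 0.10) and 0.26 (-0.07 to 0.60). In all 20 such intervals were read, and hepatocyte RNA outside cells is counted in every part.

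Other genes of bile acid handling were taken from 4 lists of 56 genes, of which 47 had at least 10 UMIs. Their median log2 ratio was 0.07, with 10 past 2-fold lower and 6 higher, where 18.2% and 15.1% of all genes were. In the synthesis list, 11 counted genes had a median of -0.83, with 4 past 2-fold lower and 0 higher. All 11 had at least 100 UMIs, and among all such genes 27.0% were 2-fold lower and the median was -0.59. The 4, named after their values were seen, were the peroxisomal side-chain genes Scp2 (-2.04), Hsd17b4 (-1.41) and Amacr (-1.27), and the aldo-keto reductase gene Akr1c6 (-1.34). Cyp2c70, which makes muricholic acids in mice, had a log2 ratio of -0.73 (-0.85 to -0.61), and Slc27a2, a very long-chain and bile acid coenzyme A ligase, of -0.59 (-0.72 to -0.45). Akr1d1, the reductase that shapes the steroid ring, was at 0.33 (0.06 to 0.60). Hsd3b7, with 4 and 3 UMIs, was too low to compare.

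The transport list had no common direction, with 15 counted genes, a median of 0.28, 3 past 2-fold lower and 4 higher. Of the uptake carriers, Slco1a1 went from 528 CPM (512 to 544) to 151 CPM (137 to 165) and Slco1a4 from 14.2 CPM (11.7 to 17.0) to 85.8 CPM (75.5 to 97.2), with log2 ratios of -1.81 (-1.95 to -1.67) and 2.60 (2.27 to 2.93). Slco1b2, another carrier of this family, was at -0.68. These related carriers thus parted from one another, as Slc10a1 and Abcb11 did.

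Among exporters, the canalicular Abcc2 was at 0.28 (0.06 to 0.50) and the phospholipid pump Abcb4 at 0.43 (0.17 to 0.68), on the same side of the cell as Abcb11. Abcc3, of the sinusoidal face, was at 1.18, with 182 and 147 UMIs, and Abcc4 had 0 and 5 UMIs. Atp8b1, a phospholipid flippase of the canaliculus, was at -1.15 (-1.66 to -0.68), and Abcg2 was at -2.54 (-3.01 to -2.11). The other 2 transport genes past 2-fold higher, named after their values were seen, were Abcb1a, with 0 and 33 UMIs and a log2 ratio of at least 4.57, the lower counting bound (4.95 against a floor of 3 UMIs per library), and Slc10a5, with 13 and 10 UMIs.

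The regulation list, 16 counted genes, had a median of 0.07, with 1 past 2-fold lower and 0 higher. The single gene was Cebpa, at -1.21, a liver transcription factor named after its value was seen. Fgfr4, the receptor through which intestinal FGF15 represses Cyp7a1, was at 0.92 (0.41 to 1.42), and its partner Klb at 0.66 (-0.26 to 1.53). Nr5a2, which encodes LRH-1, was at -0.68 (-1.25 to -0.15), and Hnf4a at -0.44 (-0.67 to -0.22), and the intervals of both included 0 relative to the median of all genes.

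The widest spread was in the sulfation and glucuronidation list of 5 genes. Sult2a1 had 4 and 630 UMIs and Sult2a2 3 and 573 UMIs, with log2 ratios of 8.79 (7.42 to 10.67) and 9.06 (7.51 to 11.35). Sult2a8, at 5200 and 403 UMIs, was at -2.20 (-2.35 to -2.06), and Ugt2b1 at -2.27 (-2.50 to -2.05). The Sult2a genes are close copies whose reads can be split in counting, so the value of each is uncertain.

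**Figure D4:**
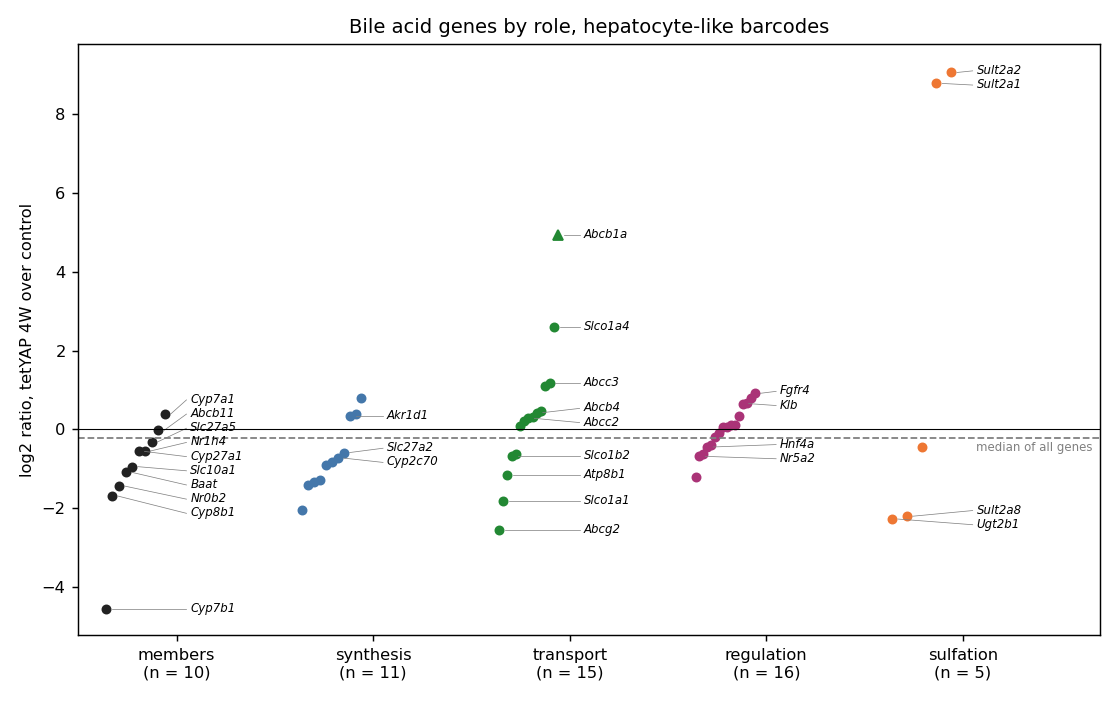
Log2 ratio of tetYAP 4W over control in hepatocyte-like barcodes for the 10 genes (members) and the counted genes of 4 other bile acid lists, 1 point per gene in order of value; the dashed line is the median of all genes, at -0.23, and the triangle, Abcb1a, is drawn at the floor of 3 UMIs, 4.95, because the control had 0 UMIs. Cyp7b1 is the lowest point of all, and Sult2a1 and Sult2a2 are the highest.

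The genes outside these lists whose pattern was most alike were sought by Pearson correlation of log2(CPM + 10) over 12 groups, each a cell class in 1 library, which share the free RNA of their library. Cyp7b1 was most like Mup11, a major urinary protein gene (r = 0.996), at 3311 and 8.65 CPM in the hepatocyte-like barcodes of control and tetYAP 4W. Mup genes are near-identical copies, so the gene named is uncertain. As for Cyp7b1, the part of the sex-linked difference between the libraries in that of Mup11 cannot be told apart from that of the transgene. Baat was most like Ugt2b35 (r = 0.983), a glucuronosyltransferase gene.

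Abcb11 was most like Proc, the gene of protein C (r = 0.932), at 339 and 302 CPM in the same barcodes. Cyp7a1 had the lowest of the 10 correlations, with Cyp4f14 (r = 0.889). The genes most like Cyp27a1, Slc27a5, Slc10a1, Nr1h4 and Nr0b2 were Ugt2b36 (0.974), Hgd (0.965), Gstz1 (0.966), 2310030G06Rik (0.967) and Ido2 (0.959). The values describe these 2 libraries and say nothing of shared control.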

How the data were processed

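The authors deposited counts, as whole numbers of UMIs per gene and barcode, made with Cell Ranger on mm10 from perfused liver cells on a droplet platform. Seurat 3 is also named in the submitters' processing notes. The study's methods give v3 libraries for perfused liver, down-sampling of its cells to a fixed number per condition and removal of cells above a UMI limit. These steps bear on class shares and doublets, and on which barcodes enter each level and ratio. The methods do not say whether the deposited table, with 2989 control and 1524 tetYAP 4W barcodes, was made before or after them. All barcodes were used as deposited, and no doublet caller was run here. Depth ran from 516 to 7277 UMIs per barcode in the control and from 2355 to 7493 in tetYAP 4W.

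The 10 genes and the lists were chosen with earlier results of these data known. Clusters were made in scanpy 1.11.5 (Python 3.11.15) from 2000 variable genes that left out the 10 genes, the pathway lists and the zonation lists (scaling to 10000 UMIs, 20 principal components, 15 neighbours, Leiden resolution 0.8). A cluster was named, as "like" a class, where 3 or more of that class's markers had 10 UMIs or more and were at least 3-fold above the rest of its library, a rule set with the data seen, and hepatocyte-like where no other class did and hepatocyte markers were present. UMIs were summed per library and divided by the total (CPM). Each log2 ratio divides tetYAP 4W by control and has exact conditional binomial intervals, counts under 3 being set to a floor of 3, sums have exact Poisson and shares exact Clopper-Pearson intervals. There is no test, since each group is 1 library. Zonation parts used the log ratio of summed list UMIs with a pseudocount of 1. The ratio step was tested on simulated data. TMM (edgeR 4.0.16) and size factors (DESeq2 1.42.0) served as scalings only. Gene positions are those of RefSeq on GRCm38.p6, and an older genome at hand was not used.

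Named besides the 10 genes are 16 listed pathway genes, the 3 highest and 3 lowest pathway genes with at least 100 UMIs, and for likeness the most correlated gene with at least 100 UMIs outside the lists and not mitochondrial. Some further genes were named after their values were seen, as the text says. The likeness result for Cyp8b1 is not reported here.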

Additional observations from a re-analysis of the deposited data

How the results depend on the processing

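No paired analysis was possible because each group has 1 library. For the same reason no replicate could be left out, and counting intervals are widest for Cyp7b1, Nr1h4 and Nr0b2. Of 150 values of single genes as log2 ratios over 15 alternatives, 97 moved within their counting interval. Of the genes past 2-fold, 2 changed sign: Baat, to 0.23 without barcodes above 30% mitochondrial UMIs, which kept 85 tetYAP 4W barcodes, and Nr0b2, at 0.020 in the clusters rich in nuclear RNA. The other 51 values moved beyond their interval. Among them Cyp27a1, Slc27a5 and Nr1h4 were above 0 in 4 settings each. Under the 30% limit the intervals lay above 0 for Cyp27a1, 0.65 (0.34 to 0.95), and Nr1h4, 1.17 (0.51 to 1.76). With totals without mitochondrial genes the interval of Slc27a5, 0.36 (0.25 to 0.47), did. The medians of all genes were then 1.07 and 0.45. Relative to them Cyp27a1 was at -0.42 (-0.74 to -0.12), Nr1h4 at 0.09 (-0.56 to 0.69) and Slc27a5 at -0.09. Baat under the 30% limit was at -0.84 relative to the median.

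The median log2 ratio of the 10 genes, -0.75, was -1.04 over all barcodes, 0.12 in the clusters rich in nuclear RNA and -1.06 in the other hepatocyte-like clusters (both added after the data were seen), -0.075 with totals without mitochondrial genes, -0.15 without these and the 50 most abundant genes, and 0.18 without barcodes above 30% mitochondrial UMIs. Relative to the median of all genes, -0.52, it was -1.64 over all barcodes, -1.60 with hepatocyte-like barcodes called without clusters, -0.056 in the clusters rich in nuclear RNA, -0.89 under the 30% limit, and -0.99, -0.32 and -0.16 with gene minimums of 1, 50 and 100 UMIs. The 4 genes past 2-fold lower became 2 in the clusters rich in nuclear RNA, 2 under the 30% limit, and 2 under either of the totals without mitochondrial genes, where 11.5%, 1.85%, 3.26% and 3.87% of all genes were lower. The count higher, 0, became 3 under the 30% limit, where 52.0% of all genes were higher, and 1 with totals without mitochondrial genes, where 29.6% were. Relative to the median, the 3 lower became 9 over all barcodes, 9 without clusters and 5 with no gene minimum, where 19.3%, 19.3% and 20.1% of all genes were lower. Other scalings, depths, weights and resolutions left these summaries within their spread. The cause of these shifts was not tested. The 20 thinned shares all moved when thinned to 2000 UMIs, and the 40 zonation ratios stayed within their intervals.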
